A study of Mus musculus with 12 samples.

Results

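Far intergenic H3K27ac regions are stretches of marked chromatin that lie deep inside the deserts between genes. The lists of called regions from 6 newborn mouse hearts were joined into 77817 autosomal union regions (overlap of at least 1 bp), and those more than 50 kb from the body of every protein-coding gene were kept. That left 8996 regions, 11.6% of all. Another 14924 regions were intergenic but nearer to a gene, 40177 lay inside a gene body, and 13720 lay within 1 kb of a gene end. Among called regions, the choice rests on position alone.

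The samples were total hearts taken at postnatal day 0 (P0). Group WT holds 3 wild-type hearts (numbered 1, 3 and 4) and group edKO holds 3 hearts (numbered 1, 3 and 6) of newborns lacking RXRab, the retinoid X receptors alpha and beta, in cardiomyocytes only. Neither group had a treatment or another allele in the labels, and the Cre driver behind the cardiomyocyte restriction is not given in the sources used here. Chromatin was precipitated with an antibody to acetylated lysine 27 of histone H3 (H3K27ac). The comparison of WT with edKO addresses how the loss of these receptors bears on active chromatin in the newborn heart. Because whole hearts were used, fibroblasts, endothelial cells and other cells that keep their RXR genes contributed to every list, and fewer cardiomyocytes cannot be told apart from less mark per cardiomyocyte.

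H3K27ac is laid down by the acetyltransferases p300 and CBP at active promoters and enhancers. In gene deserts it marks mostly distal enhancers, and the deserts around developmental regulators are known for holding many of them, each active in some tissues only. RXR alpha and beta form pairs with other nuclear receptors (PPAR, LXR and the retinoic acid and thyroid hormone receptors), which sit on DNA at direct repeats of AGGTCA with a fixed spacing.

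Each list held the peaks called in 1 heart, so the values compared here are positions, lengths in bp and the authors' fold enrichment of each peak, which was used only as a percentile within its own list. The lists held 56696, 61688 and 65203 autosomal regions in WT 1, 3 and 4 and 46967, 47302 and 66532 in the edKO hearts 1, 3 and 6. WT 4 and edKO 6 had long lists of narrow regions, with median widths of 532 and 549 bp against 666 to 1011 bp in the other 4. The ends of all 5 cardiomyocyte markers (Myh6, Tnnt2, Actc1, Ttn, Nppa), all 5 endothelial markers and all 5 fibroblast markers were marked in all 6 hearts. Those of 5 neuronal markers and of the liver genes Alb, Afp and Fgb were marked in none, while the liver gene Ttr was marked in 6 hearts and Apoa1 in 4. Of 5 leukocyte markers, Cd68 was the 1 marked, in all 6 hearts, as was Klf1 of 3 erythroid genes; 3 of 5 markers of smooth muscle and pericytes were marked in all 6. Depth per heart is unknown, and absence from a list means that no peak was called there. The labels give each heart a number but do not say whether a sample was 1 animal, so p-values measure the spread between these samples.

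Few far regions hold a transcript start with a sequence in the reference, and the ones shown here are those to which the results return. The sequences are from RefSeq (GRCm38.p6, the mm10 build). Of 919 miRNA hairpins in that table, 3 lay in far regions, against 26 in nearer intergenic regions, 50 in regions inside genes and 86 in regions at gene ends. Those 3 were Mir30a, Mir3089 and Mir125b-1. Their mature arms follow, with the seed (bases 2 to 8, which pair with targets) in capitals:
mmu-miR-30a-5p: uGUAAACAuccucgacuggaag
mmu-miR-30a-3p: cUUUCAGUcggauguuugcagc
mmu-miR-3089-5p: uGAGUUCAgggacagcgugucu
mmu-miR-3089-3p: aGCAUCUGcugauccugagcugu
mmu-miR-125b-5p: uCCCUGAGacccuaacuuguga
mmu-miR-125b-1-3p: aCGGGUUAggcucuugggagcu

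No 2 of these 6 arms share a seed. Mir30a lies at chr1:23272274-23272336 (plus strand, from the first base of the 5p arm to the last of the 3p arm) in a region of 4886 bp between Ppp1r14bl and Ogfrl1, 91617 bp from the nearer gene. That region covered 4572, 3247 and 2123 bp in WT 1, 3 and 4 and 3802, 2656 and 2714 bp in edKO 1, 3 and 6, so the genotypes overlapped. The Mir125b-1 region (2355 bp, 322432 bp from the nearest gene, Gm40514) covered 1277, 1924 and 2203 bp in WT hearts and 1645, 1253 and 1670 bp in edKO hearts, again overlapping. The Mir3089 region (7801 bp, between Cstad and 1700001O22Rik) covered 6098, 6600 and 7340 bp in WT hearts and 7119, 7336 and 7367 bp in edKO hearts. All 3 regions were called in all 6 hearts, and none of them passed the test between genotypes described below.

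The other starts are those of long noncoding RNAs (lncRNAs). The 250 bases before 5 such starts follow, each read 5′ to 3′ on the strand of the gene, with every match to a searched motif in capitals. Lexis1 and Mexis lie in the desert beside Abca1, which gave the smallest p between genotypes; Gm34099 lies beside Hand2 and E130101E03Rik beside Tbx20, both cardiac transcription factor genes; Mir99ahg is the host transcript of a miRNA cluster and lies in a strongly marked region.
Lexis1 (chr4:53218682-53218931, minus strand): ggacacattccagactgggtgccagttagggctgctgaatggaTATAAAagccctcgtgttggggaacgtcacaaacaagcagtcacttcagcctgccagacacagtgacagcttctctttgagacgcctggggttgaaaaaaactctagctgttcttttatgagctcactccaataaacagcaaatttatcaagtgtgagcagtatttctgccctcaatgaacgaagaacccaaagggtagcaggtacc
Mexis (chr4:53270233-53270482, minus strand): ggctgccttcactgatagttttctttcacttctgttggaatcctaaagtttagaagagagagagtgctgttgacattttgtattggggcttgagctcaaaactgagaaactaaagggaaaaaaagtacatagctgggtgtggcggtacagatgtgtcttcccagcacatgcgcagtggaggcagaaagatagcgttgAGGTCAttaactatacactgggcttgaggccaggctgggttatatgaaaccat
Gm34099 (chr8:57402867-57403116, plus strand): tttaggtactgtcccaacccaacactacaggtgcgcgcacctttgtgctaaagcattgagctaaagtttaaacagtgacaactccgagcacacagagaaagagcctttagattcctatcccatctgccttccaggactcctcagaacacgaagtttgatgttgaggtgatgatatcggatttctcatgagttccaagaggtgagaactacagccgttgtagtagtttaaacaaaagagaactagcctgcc
E130101E03Rik (chr9:24973958-24974207, plus strand): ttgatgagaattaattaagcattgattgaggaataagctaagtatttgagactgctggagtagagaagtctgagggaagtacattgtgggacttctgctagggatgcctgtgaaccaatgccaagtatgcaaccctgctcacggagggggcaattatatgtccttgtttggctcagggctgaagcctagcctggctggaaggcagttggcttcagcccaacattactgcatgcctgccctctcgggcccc
Mir99ahg (chr16:77329078-77329327, plus strand): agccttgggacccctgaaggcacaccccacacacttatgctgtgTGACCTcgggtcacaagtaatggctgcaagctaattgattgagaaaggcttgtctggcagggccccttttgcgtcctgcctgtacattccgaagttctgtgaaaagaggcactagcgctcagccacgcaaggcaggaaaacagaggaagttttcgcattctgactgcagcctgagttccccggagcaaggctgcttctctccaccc

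The motifs searched, on both strands, were AGATAA for GATA factors, CTANNNNTAG for MEF2 factors, AGGTCA as the half-site of nuclear receptors (read as TGACCT on the opposite strand), its direct repeats AGGTCANAGGTCA and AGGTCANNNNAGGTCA, which hold the half-site, and TATAAA as the usual core promoter box. In the stretches shown, TATAAA was found before Lexis1, at -207 to -202 from the start. The half-site was found before Mexis (-53 to -48 from the start) and before Mir99ahg (-206 to -201). Each stretch was searched over its whole length, so a TATAAA match alone does not mark a core promoter. The far regions called in all 6 hearts held 214 lncRNA starts of 177 genes, so that some windows are of 1 gene and overlap. AGATAA was found before 15.4% of these starts, against 12.1% of all lncRNA promoters of the table and 9.94% of all its 31396 promoters. The half-site was found before 17.3%, against 16.2% of lncRNA promoters and 14.1% of all. MEF2 letters were found before 4.21%, against 3.44% and 3.24%, and TATAAA before 12.1%, against 13.5% and 12.4%. Neither direct repeat was found in those 214 windows, and over all promoters they are rare (0.0350% and 0.0159%). A match is a run of letters and not a bound site.

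Far regions were a small share of each heart's list, and no difference in that share between genotypes was detected. Far regions numbered 6145, 6752 and 5838 in WT 1, 3 and 4 and 4727, 4682 and 6354 in the edKO hearts 1, 3 and 6. As a share of each heart's regions this was 10.2 ± 1.12% in WT and 9.84 ± 0.262% in edKO (SD, n = 3 each). The difference had an exact two-sided permutation p of 0.6, where 0.1 is the smallest p that 3 hearts against 3 allow. Their share of all called length was 7.76 ± 0.949% in WT and 7.45 ± 0.472% in edKO (exact permutation p = 0.6). WT 4 had the lowest share of regions of all 6 hearts, so the WT range enclosed all 3 edKO hearts.

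Fewer far regions than nearer intergenic ones were called in all 6 hearts. Of the 8996, 3331 (37.0%) were called in 1 heart only and 2248 (24.99%) in all 6, with 1223, 841, 626 and 727 called in 2, 3, 4 and 5 hearts. The share called in all 6 was 29.9% for nearer intergenic regions, 26.4% for regions inside genes and 76.3% for those at gene ends. Regions of 1 heart were small and low, with a median width of 302 bp and a median fold percentile of 17.0. Those of all 6 hearts had a median width of 1873 bp and a median percentile of 60.5.

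The comparison of far with nearer intergenic regions was made within each heart. Far regions were narrower in all 6 hearts: their median width was 591, 544 and 427 bp in WT hearts and 770, 510 and 439 bp in edKO hearts, on average 44.9 bp less than that of nearer regions (SD of the difference 8.78 bp, n = 6). They also ranked lower within their own list in all 6 hearts, with a median fold percentile of 37.1 to 42.1 against 43.1 to 45.5 (mean difference -4.64 points, SD 1.43). Both differences had an exact two-sided sign-flip permutation p of 0.03125, the smallest that 6 hearts allow. Regions inside genes stood at 40.2 to 42.1 in percentile, equal to far regions in WT 4, edKO 1 and edKO 6 and higher in the other 3 hearts. The share of a heart's regions that all 6 hearts called was also lower, with a difference of -0.383 points in WT 4, -1.05 points in edKO 6 and between -7.88 and -5.46 points in the other 4 hearts (mean -4.70 points, SD 3.19). The same common regions enter the value of every heart, so these 6 differences restate the pooled shares and no p is given for them. The 2 hearts with nearly no difference in sharing were those with the narrowest regions.

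**Figure D1:**
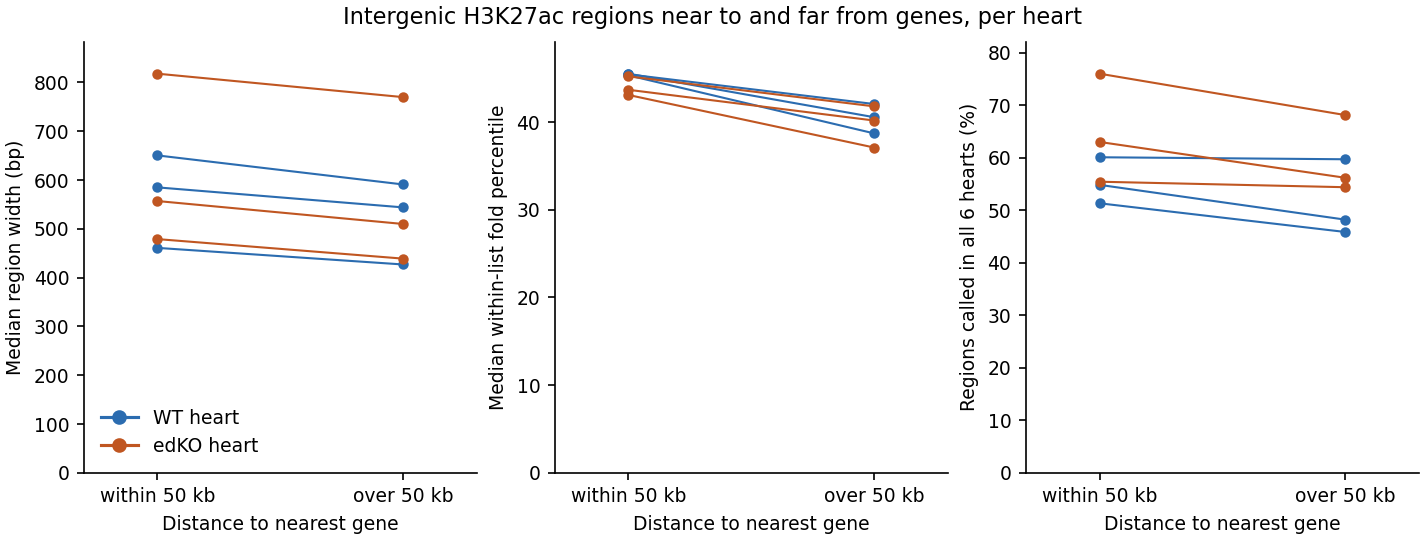
Median region width (bp), median within-list fold percentile and percent of regions called in all 6 hearts, for intergenic regions within 50 kb of a gene and over 50 kb away; each line is 1 heart (WT blue, edKO orange). All 6 lines fall in each panel, from a mean width difference of -44.9 bp to a mean difference of -4.70 points in sharing.

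Regions of all 6 hearts made up a smaller share at greater distance. The median distance of far regions to the nearest gene was 118352 bp. Of 3718 regions at 50 to 100 kb, 28.1% were called in all 6 hearts, followed by 23.8% of 2876 at 100 to 200 kb, 21.8% of 1990 at 200 to 500 kb and 20.1% of 412 beyond 500 kb. These shares are descriptions, since neighbouring regions share hearts and lists. The fold percentile of regions called in all 6 hearts stayed between 58.2 and 61.5 over the 4 distance classes. Beyond 1 Mb there were 64 regions, 9 of them called in all 6 hearts.

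**Figure D2:**
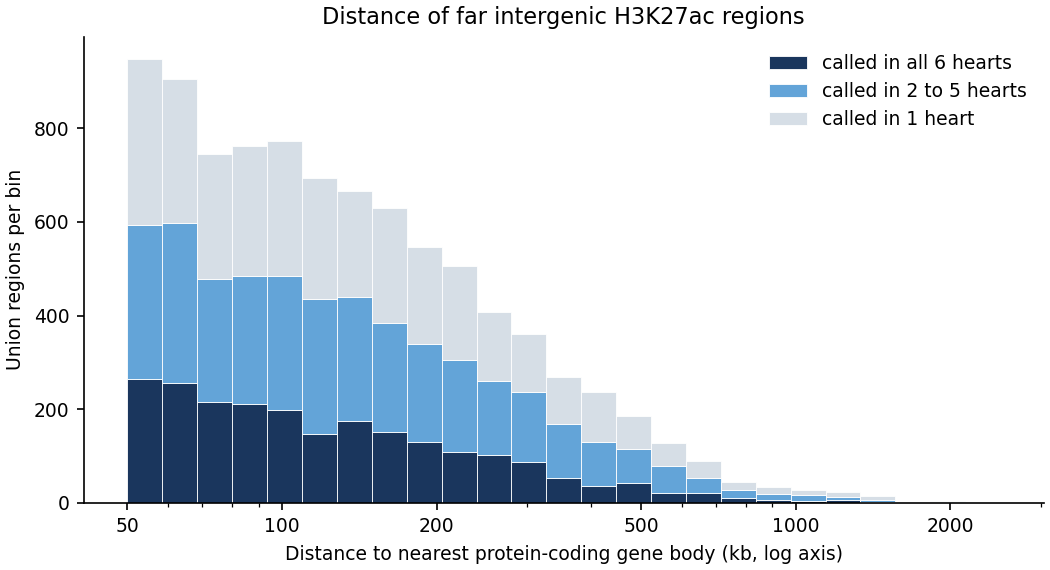
Number of far regions by distance to the nearest protein-coding gene body (kb, log axis, bins of equal width on that axis), stacked by the number of hearts that called them. Counts fall with distance, and regions of all 6 hearts make up 28.1% at 50 to 100 kb and 20.1% beyond 500 kb.

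The most remote regions called in all 6 hearts lay more than 1 Mb from any gene, in 4 deserts. The farthest (chr12:94334041-94335962) was 1356043 bp from Flrt2, which encodes a membrane adhesion protein of the developing heart, and a second one in the same desert was 1254672 bp from Gm40892. Next came chr2:46442100-46445546, 1324657 bp from Zeb2, a repressor of epithelial genes, and over the start of the lncRNA Gm13470. It covered 1901, 2842 and 2272 bp in WT hearts and 2654, 2278 and 2597 bp in edKO hearts. The remaining 2 were between Fam98a and Crim1 (1296873 bp) and between Nmbr and Cited2, a CBP-binding cofactor needed for heart septation (1281354 bp). In none of the 5 were the genotypes apart by the test.

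Far regions were unevenly spread over the deserts. Of 2495 gaps between genes that are wider than 100 kb, 1279 (51.3%) held at least 1 far region, and with chromosome ends 1284 stretches did. The median was 4 regions per gap and the maximum 76. The 110 gaps with 20 or more held 38.8% of all far regions, while 295 gaps held 1 each. Density was 10.4 regions per Mb in far space against 27.7 in nearer intergenic space and 53.5 over genes, and for regions of all 6 hearts 2.60 against 8.17 and 21.1. Chromosome 13 had the highest share of its regions in far space (789 regions, 22.0%), and chromosomes 19 (5.72%) and 11 (6.37%) the lowest.

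The deserts with the most marked length included those of known regulators of heart development. The largest was between Cd83 and Jarid2, a partner of the Polycomb complex with a role in heart development. It held 74 far regions, 29 of them in all 6 hearts, and covered 62614, 55992 and 52522 bp in WT 1, 3 and 4 and 58283, 36720 and 51290 bp in edKO 1, 3 and 6. The desert between Gata6, a cardiac GATA factor, and Rbbp8 held 42 far regions and covered 35418, 38184 and 35361 bp in WT hearts and 35874, 25086 and 35229 bp in edKO hearts. In both deserts edKO 3 was the lowest heart and the genotypes overlapped.

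The other 8 of the 10 largest were Irf2bp2 to Tomm20, Gm5148 to Ankrd50, Rad51b to Zfp36l1, Rps24 to Zmiz1, Cebpb to Ptpn1, Haao to Zfp36l2, Akr1e1 to Klf6 and Pik3r1 to Cd180. They include the RNA decay factors Zfp36l1 and Zfp36l2 and the immediate early transcription factors Cebpb and Klf6. Mean covered length over 6 hearts ran from 33101 bp (Pik3r1 to Cd180) to 47670 bp (Irf2bp2 to Tomm20). In all 10 deserts the genotypes overlapped, with log2 differences of edKO minus WT in covered length between -0.15 and 0.23.

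The 5 widest regions called in all 6 hearts were 9359 to 13941 bp wide. The widest (chr3:115634535-115648475) lay 61957 bp from S1pr1, the sphingosine 1-phosphate receptor of endothelium, and over the start of the lncRNA Gm40124. It covered 12726, 12128 and 11477 bp in WT hearts and 12077, 8768 and 9053 bp in edKO hearts, so edKO 1 lay among the WT hearts and the 2 other edKO hearts below. The next lay between Cebpb and Ptpn1 (11427 bp, over the starts of Gm32800 and Gm32845), beside Hspa9, between Ednra, an endothelin receptor gene, and Ttc29, and between Irf2bp2 and Tomm20.

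The 5 with the highest fold percentile were almost at the top of their lists. They lay between Chd2 and Fam174b (mean percentile 99.6), between Wnt7b and Ppara (99.6), between Jak1 and Ak4 (99.1), between Zfat and Khdrbs3 (98.9) and between Kcnrg and Dleu7 (98.8). The Wnt7b to Ppara region (chr15:85668567-85674870), 60039 bp from Ppara, the fatty acid receptor that pairs with RXR, covered 4775, 4825 and 5534 bp in WT hearts and 5151, 4835 and 5963 bp in edKO hearts. The hearts overlapped, and the log2 difference was 0.14 (SE 0.14, limma adjusted p = 0.920). The Kcnrg to Dleu7 region held the start of the lncRNA Dleu2 and the Jak1 to Ak4 region that of E130102H24Rik.

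At the limit itself, the nearest regions inside it were 50037 bp from Cd200 and 50047 bp from Ubash3b, and the nearest outside were 49975 bp from Btg3 and 49899 bp from Cd2ap. All 4 were called in all 6 hearts, and their mean fold percentiles were 63.2, 40.9, 65.1 and 78.0.

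Genes beside far regions were counted with 8 lists of genes. A gene counts if one of the gaps it borders holds a far region. This held for 2271 of all 20665 autosomal protein-coding genes (10.99%). It held for 30 of 40 cardiac transcription factors (75%), 23 of 35 secreted signals and growth factors (65.7%), 13 of 25 endothelial and endocardial regulators (52%) and 13 of 26 regulators of fibroblasts, epicardium and smooth muscle (50%). It held for 8 of 18 neural crest and neural regulators (44.4%) and 13 of 31 nuclear receptors and coactivators (41.9%). At the low end were 7 of 37 sarcomere, calcium and conduction genes (18.9%) and 3 of 35 fatty acid and mitochondrial fuel genes (8.57%). A gap can hold a far region only where it is wider than 100 kb, and the lists differed in how many members border one: 32 of the 40 cardiac transcription factors did, and 5 of the 35 fuel genes. Among genes at such a gap, a far region was present for 55.2% of all 4103 genes, 30 of 32 cardiac transcription factors (93.8%), 23 of 26 signals (88.5%), 13 of 15 endothelial regulators (86.7%) and 13 of 16 nuclear receptors (81.2%). It was present for 7 of 9 sarcomere, calcium and conduction genes, 13 of 19 regulators of fibroblasts, epicardium and smooth muscle (68.4%), 8 of 13 neural regulators and 3 of 5 fuel genes. These counts are descriptions with no test, and no list is set apart by them.

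**Figure D3:**
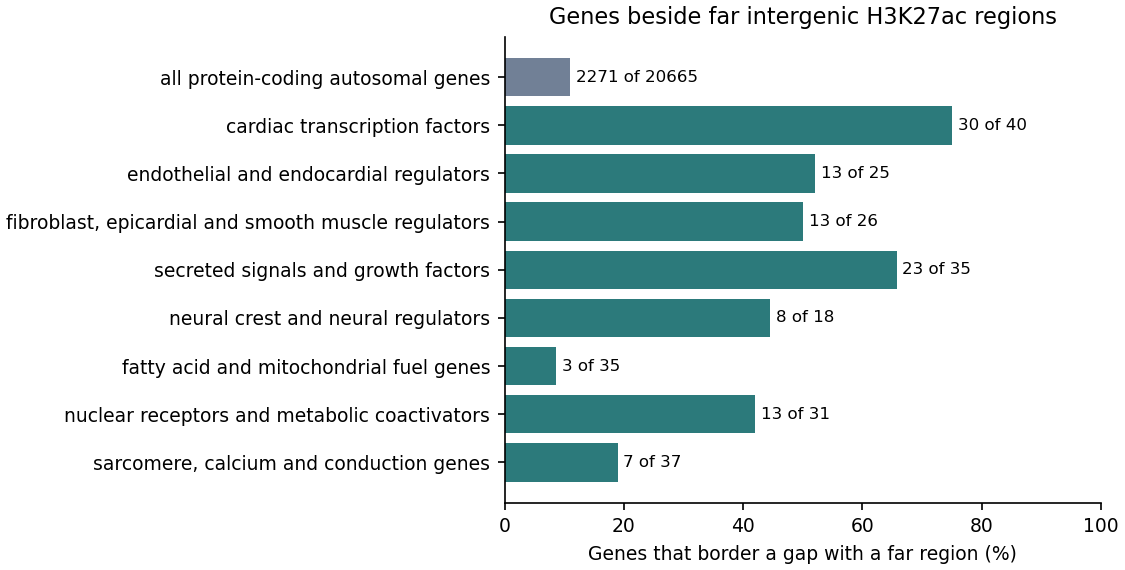
Percent of genes that border a gap with a far region, for all autosomal protein-coding genes (grey) and for 8 gene lists (green), with the counts beside each bar. Cardiac transcription factors stand at 75% and fatty acid and mitochondrial fuel genes at 8.57%, against 10.99% of all genes.

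Among cardiac transcription factors, Nfib, Gata6 and Tbx20 had the most far covered length. Nfib, a nuclear factor I gene, had 61 far regions on its 2 sides, which covered 45691, 45956 and 37139 bp in WT hearts and 37451, 25230 and 31553 bp in edKO hearts, with WT 4 just below edKO 1. Tbx20, a T-box factor of the myocardium, had 28, covering 20171, 22889 and 13819 bp in WT hearts and 19034, 16244 and 19060 bp in edKO hearts. Its E130101E03Rik region (chr9:24971777-24976888), whose start sequence is given above, covered 3877, 4664 and 2923 bp in WT hearts and 4033, 3125 and 4152 bp in edKO hearts. Hand2, a basic helix-loop-helix factor of the right ventricle, had 22 far regions, and its Gm34099 region covered 5372, 4350 and 4862 bp in WT hearts and 5160, 4406 and 4885 bp in edKO hearts. In each of these the genotypes overlapped. Gata4 and Nkx2-5 had no far region.

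The members with the most far length in the other lists were as follows. In the endothelial list they were Ets1 (27 far regions), Nr5a2 and Klf4. In the list of fibroblasts, epicardium and smooth muscle they were Zeb2 (40), Tbx18 and Ebf1, and among signals Cxcl12, Ccn2 and Fgf9. Gja1, the connexin 43 gene, led the sarcomere and conduction list with 30 far regions and 24946, 21871 and 16099 bp in the WT hearts beside 27118, 17622 and 15316 bp in the edKO hearts. Ppara had the most far length in the list of nuclear receptors and coactivators, below Nr5a2, itself a nuclear receptor, of the endothelial list. It had 14 regions, 8 of them in all 6 hearts, and 14985, 15982 and 15964 bp in the WT hearts beside 17993, 14416 and 17946 bp in the edKO hearts. At both genes the genotypes overlapped. The 3 fuel genes were Lpl (lipoprotein lipase), Acsl1 (acyl-CoA synthetase) and Pdk4 (pyruvate dehydrogenase kinase). Pdk4 had 2 far regions, neither of them called in all 3 WT hearts. Together they covered 331, 329 and 255 bp in WT hearts and 0 bp in all 3 edKO hearts, too little for the test.

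The test between genotypes used covered length. All far regions of 1 gap were summed into a block, nearer intergenic regions and genes were summed likewise, and log2(bp + 200) was compared with limma, adjusted over all 14622 blocks with a mean of at least 500 bp. Of 1284 far blocks, 918 reached that length. Of these, 3 fell in edKO and 0 rose (adjusted p under 0.05). That is 0.327% of far blocks, where over all blocks 0.116% fell and 0% rose; the far count rests on 3 blocks. At an unadjusted p under 0.05, 94 far blocks were lower and 5 higher (10.2% and 0.545%), against a background of 4.88% lower and 1.72% higher. In 84 far blocks (9.15%; 7.34% of all blocks) every edKO heart was below every WT heart, and in 3 (0.327%; 0.759% of all) every one was above. The median log2 difference was -0.05 over far blocks and 0.04 over all blocks. These unadjusted limma counts moved with the lists and hearts used. With lists of equal length 62 far blocks were lower and 12 higher (7.05% and 1.37%, against 4.13% and 1.48% of all blocks). Without WT 1 they were 59 and 16 (6.48% and 1.76%, against 3.73% and 1.62%). Without WT 3 they were 69 and 17 (7.60% and 1.87%, against 3.98% and 1.68%). Without WT 4 they were 138 and 8 (14.7% and 0.855%, against 4.96% and 1.95%). The median over far blocks was -0.00 without WT 1 and -0.19 without WT 4. With peaks of a −log10 q of at least 5 only, or with lists of equal length, 1 of the 3 calls was kept, that of the Abca1 desert (limma adjusted p = 0.0256 and 0.0497).

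The same test on single regions (a mean of at least 200 bp) held 4195 far regions among 42001, of which 3 fell in edKO and 0 rose. That is 0.0715% of far regions, close to the background of 0.0667% lower, with 0% higher. Of 7591 nearer intergenic regions, 11 fell (0.145%) and 0 rose. Unadjusted, 260 far regions were lower and 54 higher, 6.20% and 1.29% against a background of 5.04% and 1.29%. With lists of equal length 1 of the 3 calls was kept, and with the stricter q none was. At the stricter q 165 regions were lower at an unadjusted limma p under 0.05 (5.15%, against 4.44% of all regions). Without WT 1, 158 were lower and 95 higher (3.86% and 2.32%, against 3.62% and 1.67% of all regions). Without WT 3 they were 175 and 85 (4.33% and 2.10%, against 3.74% and 1.58%). The genotypes were fully apart with edKO lower in 346 (8.25%, background 7.89%) and with edKO higher in 47 (1.12%, background 1.13%). For nearer intergenic regions these shares were 9.02% and 1.32%.

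The first of the 3 blocks that fell lies between Abca1 and Slc44a1. Abca1 encodes the transporter that passes cellular cholesterol to apolipoprotein A-I and is a textbook target of LXR paired with RXR. The desert of 280 kb (chr4:53159989-53440386) held 16 far regions, which covered 9682, 8301 and 8249 bp in WT 1, 3 and 4 and 2966, 2403 and 3611 bp in edKO 1, 3 and 6. Every WT heart lay above every edKO heart. The log2 difference was -1.40 (SE 0.14, limma adjusted p = 0.0315). It lost the call without any 1 of WT 1, 3 or 4 (adjusted p 0.188 to 0.208), without edKO 1 (0.0855) and without edKO 3 (0.138), with a log2 difference of -1.31 to -1.48 in these cases.

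Within that desert, the region that fell (chr4:53217149-53220290) is 57160 bp from Abca1 and holds the start of Lexis1, a noncoding RNA known as induced by LXR in liver. It covered 3141, 3028 and 2695 bp in WT hearts and 1508, 1021 and 1302 bp in edKO hearts, with no overlap (log2 difference -1.04, SE 0.10, limma adjusted p = 0.0226). Its fold percentile within the list was 85.3 in WT 1, 89.6 in WT 4 and slightly higher in WT 3, against 36.8, 64.6 and 74.2 in edKO 1, 3 and 6, so it was ranked lower in every edKO heart as well as being narrower. The call was lost without any 1 of the WT hearts (adjusted p 0.197 to 0.288).

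Mexis, the neighbouring noncoding RNA known as an LXR target that raises Abca1, held another far region of all 6 hearts (chr4:53263262-53264773). It covered 1512, 1048 and 1266 bp in WT hearts and 538, 444 and 475 bp in edKO hearts, which did not overlap, but it did not pass the test (log2 difference -1.03, SE 0.24, limma adjusted p = 0.340). The region over the Mexis start, shown above with its half-site, was called in 3 WT hearts (456, 333 and 359 bp) and in edKO 6 (310 bp). A further region (chr4:53231422-53232960) was called in all 3 WT hearts (1539, 1385 and 727 bp) and in no edKO heart. By contrast, a region 155080 bp from Abca1 (chr4:53315069-53316432) covered 1009, 526 and 324 bp in WT hearts and 920, 643 and 781 bp in edKO hearts, which overlapped.

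**Figure D4:**
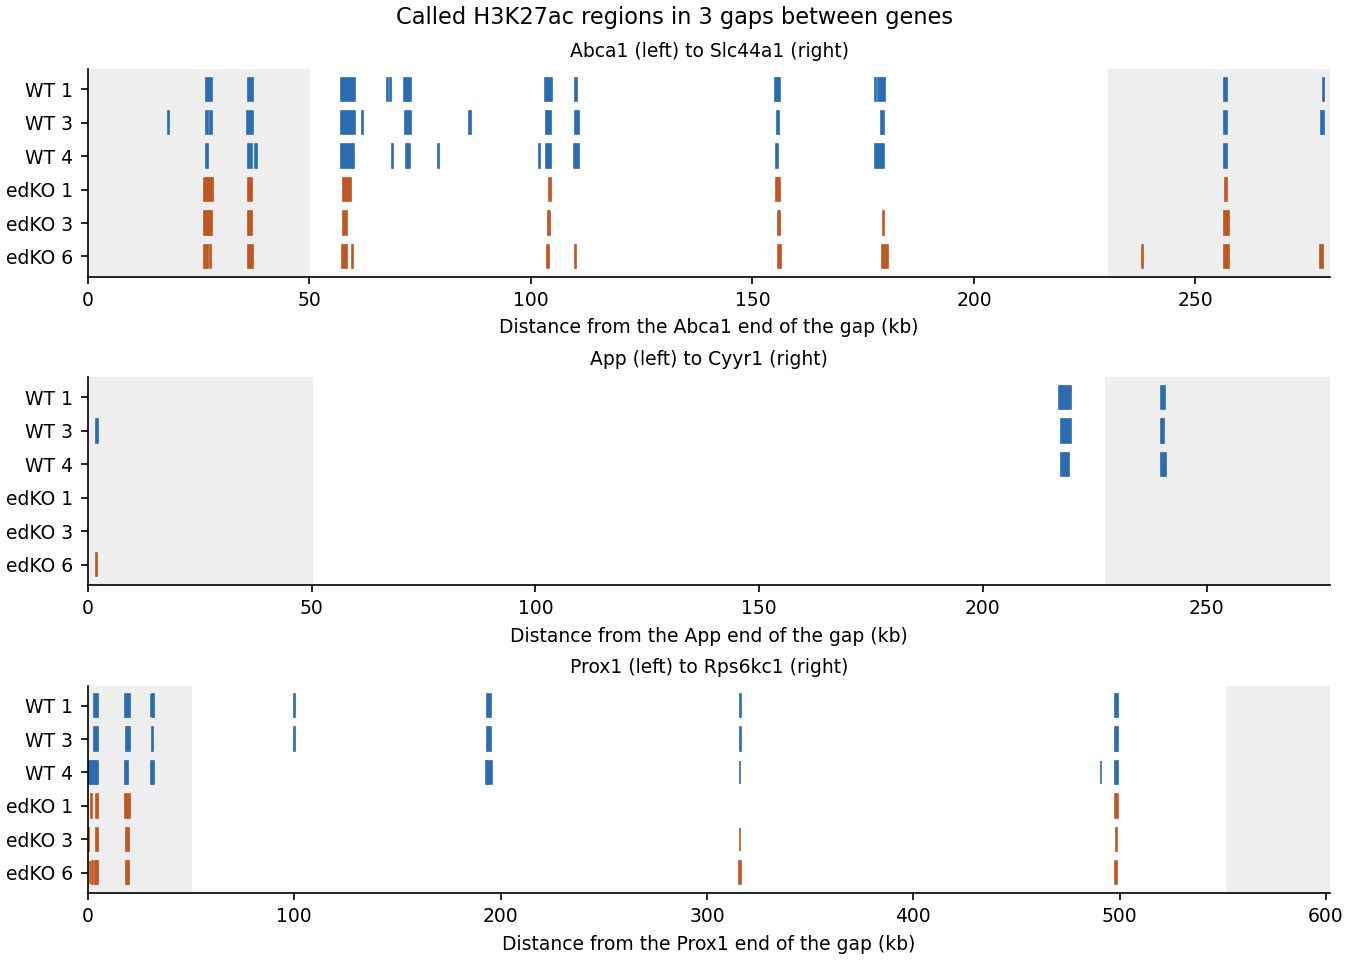
Called H3K27ac regions in each heart (WT blue, edKO orange) along 3 gaps, as distance in kb from the left gene; grey bands are the 50 kb next to each gene, outside the far space. In the Abca1 gap the region near 57 kb covers 2695 to 3141 bp in WT hearts and 1021 to 1508 bp in edKO hearts, and the far regions of the App gap and the one near 193 kb in the Prox1 gap appear in WT hearts only.

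The second block lies between App, the amyloid precursor gene, and Cyyr1. It held 2 far regions, which covered 2715, 2128 and 1780 bp in WT hearts and 0 bp in all 3 edKO hearts (limma adjusted p = 0.0357). Nearly all of this was 1 region, chr16:85392586-85395025, 57832 bp from Cyyr1, with 2440, 2128 and 1780 bp in WT hearts and no call in edKO (limma adjusted p = 0.0262). It ranked at percentiles 81.0, 85.1 and 80.1 of the WT lists, against a median of 29.0 over all far regions that WT hearts alone called. The block lost its call without any 1 of the hearts except edKO 6 (adjusted p 0.0509 to 0.542), and the region without any 1 WT heart (0.384 to 0.422). In block and region alike all 3 edKO values were 0 bp for lack of a call, so the edKO hearts showed no spread. The log2 difference of the region was -3.46 with 200 bp added and -1.59 with 1000 bp added.

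The third block lies between Sorl1, a sorting receptor gene, and Sc5d, which encodes sterol C5-desaturase of cholesterol synthesis. Its 4 far regions covered 2888, 2124 and 3111 bp in WT hearts and 820, 521 and 660 bp in edKO hearts. The groups did not overlap (log2 difference -1.65, SE 0.19, limma adjusted p = 0.0498). Of these, the region at chr9:42182799-42183880 was called in all WT hearts (916, 807 and 1082 bp) and no edKO heart, and the one at chr9:42187199-42188783 covered 1178, 1317 and 1484 bp in WT hearts and 820, 521 and 660 bp in edKO hearts. All 4 lie over the noncoding gene 4930546K05Rik. The block lost its call without any 1 of the 6 hearts (adjusted p 0.132 to 0.232).

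The last region that fell is in the desert beside Prox1, the homeobox factor of lymphatic endothelium that heart muscle also needs. It spans chr1:190364141-190366890, 193313 bp from Prox1. It covered 2077, 1999 and 2750 bp in WT 1, 3 and 4 and was called in no edKO heart (limma adjusted p = 0.0262), and lost the call without any 1 WT heart (0.359 to 0.409). Its percentiles in the WT lists were 82.6, 85.3 and 85.0. Here too the edKO values were all 0 bp and showed no spread. The log2 difference was -3.55 with 200 bp added and -1.66 with 1000 bp added. The block from Prox1 to Rps6kc1 as a whole covered 4213, 4349 and 4819 bp in WT hearts and 1610, 679 and 1877 bp in edKO hearts, which did not overlap, without passing the test (log2 difference -1.54, SE 0.25, limma adjusted p = 0.133).

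The 5 far blocks next in order of p among those whose genotypes did not overlap, all lower in edKO and none past the threshold, were 4930583I09Rik to Tmem232, Dysf to Cyp26b1, Ppp2r3a to Ephb1, Sdk2 to Rpl38 and Snx19 to Adamts15. Dysf encodes the membrane repair protein dysferlin, and Cyp26b1 an enzyme that clears retinoic acid. Their desert covered 1374, 2491 and 2964 bp in WT hearts and 0, 0 and 230 bp in edKO hearts (limma adjusted p = 0.114). Snx19 to Adamts15 covered 6833, 6291 and 5378 bp in WT hearts and 3853, 1992 and 3184 bp in edKO hearts (log2 difference -0.93, SE 0.15, limma adjusted p = 0.132).

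In the other direction, the 3 blocks whose edKO hearts all lay above the WT hearts were Gm525 to Nog, Pros1 to Epha3 and Nupl2 to Kcnh2, none of which passed the test (limma adjusted p 0.692 to 0.847). Nog encodes noggin, an inhibitor of bone morphogenetic proteins, and Kcnh2 a potassium channel of cardiac repolarization. The Nog block covered 555, 723 and 505 bp in WT hearts and 838, 795 and 1300 bp in edKO hearts, and the Kcnh2 block 1443, 1625 and 1565 bp in WT hearts and 1719, 1656 and 1738 bp in edKO hearts.

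**Figure D5:**
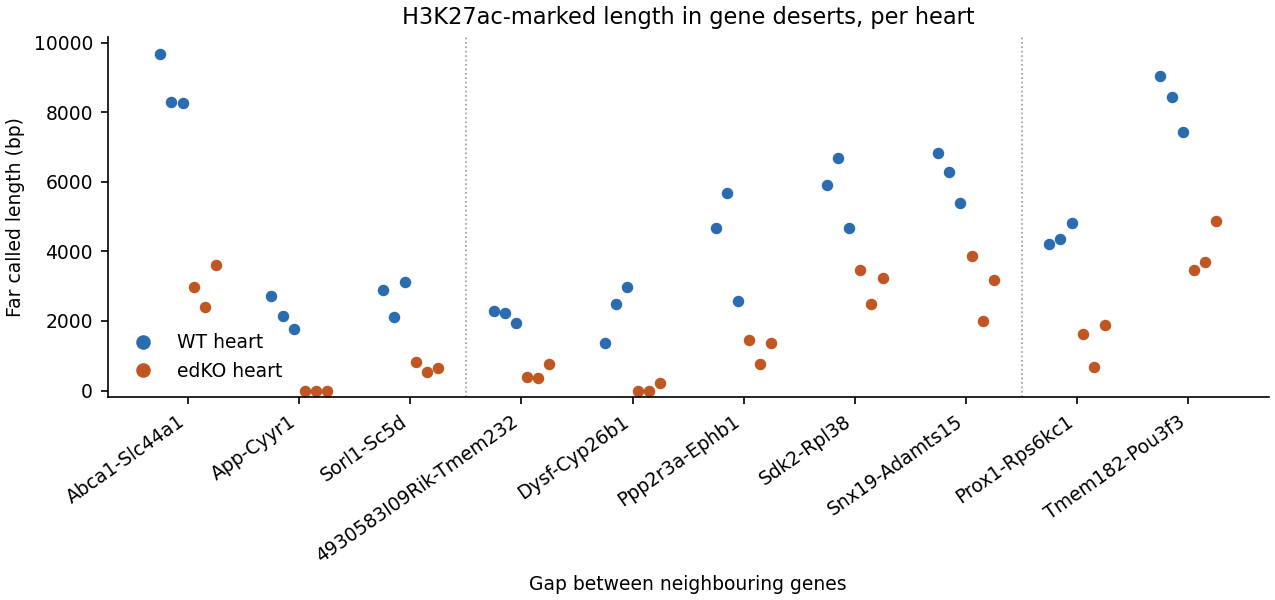
Far covered length (bp) per heart (WT blue, edKO orange) in 10 deserts named by the genes on both sides: the 3 that passed the test (left of the first dotted line), the 5 next in order of p among blocks without overlap, and after the second dotted line the Prox1 and Pou3f3 deserts, which did not pass. Every edKO heart lies below every WT heart in each, with 0 bp in all 3 edKO hearts between App and Cyyr1. For the 5 this was the rule of choice, and the Prox1 and Pou3f3 deserts were chosen after their values were seen.

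By gene list, limma called 0 far blocks in either direction for each of the 8 lists. At an unadjusted p under 0.05, 4 of 33 blocks beside cardiac transcription factors were lower and 0 higher, where 10.2% of all far blocks were lower. In the other lists 3 of 15 blocks of fibroblasts, epicardium and smooth muscle, 2 of 17 of signals, 2 of 4 neural, 2 of 11 nuclear receptor, 2 of 8 sarcomere, calcium and conduction, 0 of 14 endothelial and 0 of 2 fuel gene blocks were lower, and none of any list was higher. The median log2 difference was -0.11 beside cardiac transcription factors, against -0.05 over all far blocks. The other medians were -0.02 (14 endothelial blocks), -0.04 (15 blocks of fibroblasts, epicardium and smooth muscle), -0.10 (17 blocks of signals) and -0.20 (8 sarcomere, calcium and conduction blocks). They were 0.08 for the 11 nuclear receptor blocks and 0.08 for the 2 testable fuel gene blocks. The 4 neural blocks had a median of -0.54.

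Of the list members with enough far length for the test, 11 had every edKO heart below every WT heart in far length, and 0 the reverse, without passing the test. By block this held for 4 of 33 blocks of cardiac transcription factors and 4 of 15 of fibroblasts, epicardium and smooth muscle. It held for 3 of 11 nuclear receptor, 2 of 4 neural and 1 of 8 sarcomere, calcium and conduction blocks. Endothelial (0 of 14), signal (0 of 17) and fuel gene blocks (0 of 2) had none. The share was 9.15% of all far blocks and 7.34% of all blocks. By p the 11 members were Prox1, Pax3, Pou3f3, Tbx15, Nr2f1, Sox9, Ppargc1a, Nr4a2 and Kcnj3 (which share 1 block), Runx2 and Rora. Beside Prox1 the values are given above. The block beside Pax3, a neural crest and muscle paired-box factor, covered 1934, 1452 and 2064 bp in WT hearts and 328, 0 and 0 bp in edKO hearts (log2 difference -2.76, SE 0.45, limma adjusted p = 0.139). That beside Tbx15, a T-box factor, covered 5655, 2990 and 1306 bp in WT hearts and 715, 0 and 314 bp in edKO hearts (limma adjusted p = 0.300). The block beside Nr2f1, an orphan nuclear receptor of the atria, covered 1729, 1428 and 1740 bp in WT hearts and 859, 551 and 265 bp in edKO hearts (log2 difference -1.25, SE 0.32, limma adjusted p = 0.381). The desert beside Pou3f3, a neural POU factor, covered 9031, 8446 and 7434 bp in WT hearts and 3455, 3699 and 4858 bp in edKO hearts (log2 difference -0.93, SE 0.17, limma adjusted p = 0.197), and Ppargc1a, the PPAR coactivator of mitochondrial genes, had 1405, 848 and 808 bp in WT hearts and 431, 0 and 230 bp in edKO hearts (limma adjusted p = 0.562). These members were named after their values were seen.

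Far regions called in all hearts of 1 genotype and none of the other were few. All 3 WT hearts and no edKO heart called 124 (1.38%; background 1.07% of all union regions). All 3 edKO hearts and no WT heart called 12 (0.133%; background 0.0732%). The edKO lists 1 and 3 were shorter than every WT list, and with lists of equal length the counts were 50 and 19. For equal lists the share over all union regions is not given here, so those counts are not set against a background. Some regions of both sets fell short of the mean of 200 bp and were not tested. By limma 2 WT-only regions, those beside Prox1 and Cyyr1, passed the threshold, and no edKO-only region did. Both sets were chosen on the values that the test used, so these calls are not independent of the choice. By class, the share called in WT only was 1.16% of nearer intergenic regions, 1.19% of regions inside genes and 0.430% of those at gene ends.

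The 124 WT regions were mostly weak, with a median width of 748 bp and a median fold percentile of 29.0, and were spread over 108 gaps. The gap from Slc4a3 to Epha4 held 4 and that from Nox3 to Arid1b held 3. The 5 with the highest percentile were those beside Prox1, Cyyr1, Pou3f3, Sorl1 and Gli2. The Pou3f3 region (chr1:42532028-42533918) covered 1891, 1778 and 1828 bp in WT hearts and 0 in edKO, just outside the threshold (limma adjusted p = 0.0519). The region between Gli2, a Hedgehog transcription factor gene, and Inhbb covered 1011, 866 and 1326 bp in WT hearts (limma adjusted p = 0.213).

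The 12 edKO regions had a median width of 600 bp, a median percentile of 23.7 and lay in 12 gaps. The top 5 by percentile were between Akr1d1 and Trim24, Tlk1 and Mettl8, Prl5a1 and Sox4, Eea1 and Btg1, and Mtx2 and Gm50595. The one 209640 bp from Sox4, a transcription factor of outflow tract development, covered 408, 433 and 495 bp in edKO 1, 3 and 6. Their highest mean percentile was 56.4, against 84.3 for the WT region beside Prox1.

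Noncoding genes were common among far regions. Of the 8996, 2403 (26.7%) overlapped a lncRNA gene, against 22.0% of nearer intergenic regions. A lncRNA start lay in 255 (2.83%), against 3.28% of nearer intergenic regions. It lay in 7.65% of the far regions of all 6 hearts and 0.690% of those of 1 heart, against 7.79% and 0.815% of nearer ones. Among far regions of all 6 hearts, those with a start had a median width of 2229.5 bp and a median percentile of 72.3, against 1842 bp and 59.5 without one. Nearer intergenic regions differed in the same direction, with 2070 bp and 75.6 against 1778 bp and 63.02. The Mir99ahg region, 211274 bp from Usp25, stood at a mean percentile of 94.3 and covered 3691, 3703 and 3546 bp in WT hearts and 4481, 3842 and 3587 bp in edKO hearts. The median GC content of the 250 bases before the 214 starts was 50%, against 48.4% for all lncRNA promoters and 56% for protein-coding ones. Of the lncRNA starts in regions called by WT hearts only, that of Gm10494, between Cdc42ep3 and Rmdn2, lay in a region of 810, 691 and 403 bp in WT hearts.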

How the data were processed

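The authors deposited 1 narrowPeak list per H3K27ac heart. Per the submitters' processing notes they used MACS2, SAMtools, BWA and cutadapt with the builds mm10 and GRCm38; versions and settings were not given. The deposited start, end and summit are positions in mm10. The deposited signal column is each peak's fold enrichment, a ratio, and the deposited significance columns are its −log10 p-value and −log10 q-value. These deposited values only ranked or filtered peaks within a list. The 6 inputs were not used here.

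Entries with the same start and end were merged, autosomes kept, and regions of the 6 hearts joined. Distances were taken to 20665 autosomal protein-coding genes of a RefSeq table of GRCm38.p6. A fold percentile is a region's rank by its highest fold within its own heart's list. Covered length was taken as log2(bp + 200), centred per heart on blocks (or regions) covered in all 6 hearts, and tested with limma 3.58.1 (R 4.3.3, trend and robust) and Benjamini-Hochberg adjustment at 0.05; differences on this scale understate those of short regions. Tested on simulated lengths, the fit over 14622 blocks called 92% of 50 blocks lowered by 2 log2 units, 50% of 50 lowered by 1, 78% of 50 raised by 2 and 46% of 50 raised by 1, with 7 false calls. Over 42001 regions it called 42%, 2%, 36% and 0% in that order, with 4 false calls. The simulated hearts were drawn independently, and the spreads were shuffled over blocks or regions. Any link between short length and spread was thus lost, so these rates need not hold for short far blocks and regions. Of 250 listed genes, 247 were matched. The members, gene lists and tests were chosen with earlier results of these data known. Named are the 10 blocks with the most covered length, the 5 widest, highest and farthest regions of all 6 hearts, all calls, the next 5 blocks by p in each direction whose genotypes do not overlap, the top 5 regions of 1 genotype, the 3 members per list with the most far length and the 2 regions on each side of the limit. Hand2, Gata4, Nkx2-5, the list members whose hearts did not overlap and the noncoding starts shown or named were chosen after their values were seen.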

Additional observations from a re-analysis of the deposited data

How the results depend on the processing

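Of the shares, the differences from nearer regions, the counts and the single blocks and regions recomputed here, none changed direction; distance classes, gene lists, motifs and noncoding genes were not recomputed. With equal list lengths the median log2 difference over far regions was 0.01 in place of -0.05. The differences in the share of far regions and of far length (edKO minus WT) ran from -1.05 to -0.04 and from -0.86 to -0.00 points, with -1.05 without WT 4; 3 hearts against 3 cannot pass, so this says nothing on stability. Far regions were narrower, lower in percentile and less shared under each alternative: without 1 heart the differences were -47.1 to -42 bp, -4.90 to -4.25 points and -5.13 to -4.26 points, the first pair at an exact permutation p of 0.0625, the smallest that 5 hearts allow, and with a limit of 25 kb the difference in sharing was -3.79 points.

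Far blocks that fell numbered 1 with entries of −log10 q of at least 5 only, 1 with equal list lengths, 0 where peaks had to cover at least 0.5 of a union region, 0 beyond 100 kb, 0 with distance to noncoding genes too, and 0 to 3 without 1 heart. Far regions that fell numbered 0, 1, 0, 1, 0 and 0 to 6 in that order, 6 with a limit of 25 kb, 10 with a pseudocount of 1000 bp and 66 without the length minimum, where 4 rose. WT-only regions numbered 62 at the stricter q, 50 with equal lists, 78 beyond 100 kb, 22 with noncoding genes and 145 to 348 without 1 heart; edKO-only regions numbered 6, 19, 7, 0 and 18 to 55. The cause of these changes was not tested, except that leaving out a heart loosens the rule for regions of 1 genotype. The number of far regions also changes with the limit and the genes used. Matching shares over all blocks or union regions are not given here, so these counts are not set against a background.

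With the replicate number as a replicate block, 10 far blocks (2 of the 3) and 0 far regions fell, in a limma fit with 1 residual degree of freedom. WT 4 and edKO 6 are alone under their numbers, so the genotype difference in this fit rests on hearts 1 and 3 of each genotype. The matching share over all blocks is not given here, so the 10 are not set against a background. At an unadjusted p under 0.05 by limma, 169 far blocks were lower and 20 higher. These are 18.4% and 2.18%, against 7.80% and 1.59% of all blocks. The labels do not say whether hearts of the same number are related. Deviations of the 2 same-numbered pairs correlated at 0.162 and 0.0724, and those of the other pairs at -0.223 to 0.142. Such small correlations cannot decide whether the numbers pair hearts, and WT 4 and edKO 6 have no partner. Depth per heart is unknown, so no limit from depth can be set on a region that was not called.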
